A study of Mus musculus with 8 samples.

Results

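The 43 genes described here act in mitosis: the cyclins and kinases that start it, the spindle checkpoint, the trigger of anaphase, the kinetochore, condensin, the spindle and the cleavage furrow, with the transcription factors FOXM1 and MYBL2. They were chosen by gene symbol, and each of the 43 was found on 1 row of the 47729 in the deposited table. All 43 passed the filter on low counts, which left 13462 genes. Pimreg was put in the list to be set against the other 42.

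The comparison was between 4 mice whose leukaemic marrow cells carried an shRNA against Fubp1 together with the BCR-ABL1 oncogene, and 4 mice whose cells carried a scrambled shRNA together with BCR-ABL1. BCR-ABL1 is the fusion kinase of chronic myeloid leukaemia, and FUBP1 binds single-stranded DNA and is best known for its action upstream of MYC. Both groups had the C57BL/6 background, donor marrow taken after 5-fluorouracil, sublethally irradiated hosts, a retrovirus with BCR-ABL1 and a red reporter, and a lentivirus with the shRNA and a Venus reporter. Total RNA came from marrow cells that carried both reporters and were sorted as negative for lineage markers and for DAPI. Every library is 1 mouse, and a library holds the RNA of many cells, so a change in the number of dividing cells and a change in RNA per cell cannot be told apart. The labels used here give neither the age of the mice nor the sequence of the shRNA.

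Cells enter mitosis when cyclin B and CDK1 become active, with the help of Polo-like and Aurora kinases. Condensin and topoisomerase II shape the chromosomes, and kinetochores bind them to the spindle. The spindle checkpoint restrains the anaphase-promoting complex (APC/C) until each chromosome is attached. The complex then marks securin and cyclin B for destruction. Most of these genes are transcribed in G2 and M phase through MuvB complexes, with MYBL2 and FOXM1 as activating partners, at a promoter element called the cell cycle genes homology region (CHR).

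Total counts ran from 22465303 to 44761356 per library. Expression is given in CPM, counts per 1000000 counts of the library after TMM scaling (trimmed mean of M values). Fubp1 itself measured 281, 228, 220 and 239 CPM with the Fubp1 shRNA, against 296, 284, 291 and 396 CPM with the scrambled shRNA. The groups did not overlap, and the fitted log2 fold change was -0.39 (SE 0.12, edgeR adjusted p = 0.0604), a difference that missed the threshold here and passed it with DESeq2 (adjusted p = 0.0145). Its adjusted p was 0.0145 to 0.136 under the other settings. On the first principal component of all tested genes (61.1% of the variance), Fubp1 shRNA replicate 3 lay at -29.0, among the scrambled libraries at -57.3 to -13.7, and away from the other 3 Fubp1 shRNA libraries at 34.1 to 81.2. On the second component (13.7%) it lay at 42.5, apart from both the scrambled libraries at -30.4 to 0.1 and the other 3 at -8 to 20.1. The lineage genes Cd3e and Ms4a1 had 0 counts in all 8 libraries. Itgam measured 0.484, 0.297, 0.0317 and 1.26 CPM with the Fubp1 shRNA, against 0 to 0.0308 CPM with the scrambled shRNA, and was too low to be tested. Ptprc, the pan-leukocyte gene, measured 36.5, 21.1, 4.28 and 74.1 CPM with the Fubp1 shRNA, against 5.495 to 15.1 CPM with the scrambled shRNA (edgeR adjusted p = 0.131). Ermap, an erythroid membrane protein gene, ran from 893 to 1127 CPM with the Fubp1 shRNA, against 1423 to 1638 CPM with the scrambled shRNA. Those groups did not overlap (log2 fold change -0.62, edgeR adjusted p = 0.00462). Of 8 erythroid markers 5, Ermap among them, were called lower, while Hbb-bs and Alas2 were called higher, as described further on. Over all tested genes 7.29% were called lower and 8.02% higher.

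Summed mitotic transcripts overlapped between the groups, and single genes stood apart. The 42 genes without Pimreg summed to 10448, 9942, 12594 and 10826 CPM in Fubp1 shRNA replicates 1 to 4, against 11187, 10985, 10568 and 11915 CPM in scrambled replicates 1 to 4. The means were 10953 ± 1152 CPM with the Fubp1 shRNA and 11164 ± 563 CPM with the scrambled shRNA (SD, n = 4 each). Mki67 and Top2a were the largest terms of the sum, at means of 2299 and 1055 CPM over the 8 libraries. Pimreg was 9.11-fold higher, and Birc5, Cenpe and Smc2 stood at 76.0%, 83.5% and 84.4% of their scrambled level. The other 39 did not pass the test.

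Thus 1 of 43 members was called higher and 3 were called lower by edgeR's quasi-likelihood test at an adjusted p under 0.05. Over all tested genes 8.02% were called higher and 7.29% lower. Both shares of members were thus at or below the background. DESeq2 called 2 members higher and 3 lower, against 13.1% and 10% of its genes, and limma-voom called 1 and 3, against 6.25% and 6.84%. With the replicate numbers as a block 1 member was called higher and 0 lower, against 1.45% and 1.52% of genes, and at an unadjusted p under 0.05 there were 3 higher and 6 lower, against 18% and 15.5%. In the authors' deposited table Pimreg and Foxm1 passed as higher and 3 members as lower, against 11.9% and 9.43%. The median log2 fold change of the 43 was -0.02, against 0.00 over all tested genes, with 17 above 0 and 26 below. Over all tested genes 6752 lay above 0 and 6710 below. The changes were narrow: 39 of 43 members, 90.7%, lay within 0.25 log2 units of 0, against 57.3% of all tested genes. Without Pimreg the median size of the change was 0.09 log2 units, against 0.14 among the 6526 tested genes in the same CPM range. With its sign the median change was -0.02 without Pimreg, against -0.06 among those 6526 genes. All these genes share their libraries and depth, so the shares describe these 8 libraries.

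**Figure D1:**
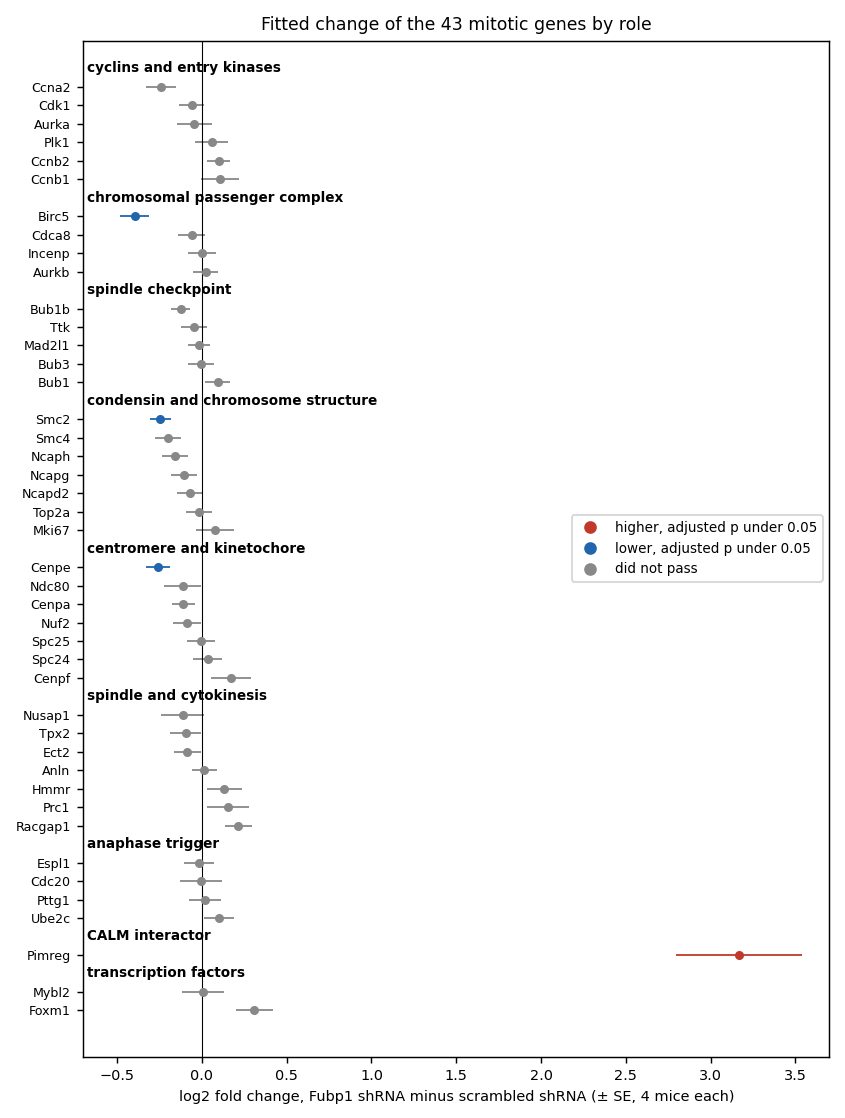
Fitted log2 fold change (x axis, Fubp1 shRNA minus scrambled shRNA, bars are SE, 4 mice in each group) of the 43 genes, grouped by role. Pimreg lies at 3.17, Birc5, Cenpe and Smc2 are the blue points on the left at -0.40, -0.26 and -0.24, and the other 39 lie between -0.24 and 0.31.

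Pimreg encodes a nuclear protein that accumulates in mitosis and binds PICALM, the clathrin adaptor also called CALM. It measured 13.9, 12.1, 12.8 and 14.6 CPM in Fubp1 shRNA replicates 1 to 4, against 1.89, 1.69, 1.82 and 0.450 CPM in scrambled replicates 1 to 4. All 4 Fubp1 shRNA mice lay at nearly the same level, replicate 3 included, and the lowest was above the highest scrambled mouse by over 10 CPM. The counts behind these values were 344, 366, 402 and 670 with the Fubp1 shRNA, against 68, 55, 70 and 10 with the scrambled shRNA. Mean CPM was 9.11-fold higher, with a log2 fold change of 3.17 (SE 0.37, edgeR adjusted p = 0.00293). The call held with each library left out in turn, with an adjusted p of at most 0.0187. In the authors' deposited table its log2 fold change was 2.67. Groups that do not overlap in the higher direction were seen for 9.54% of tested genes, and in the lower direction for 11.1%; of the 43 members 1 and 3 did so, the same genes that passed the test.

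Even so, Pimreg remained a low transcript. Per kb of merged exon (GENCODE M21) it stood at 5.27 CPM per kb with the Fubp1 shRNA and 0.578 CPM per kb with the scrambled shRNA. The next lowest member, Ndc80, stood at 7.35 CPM per kb with the Fubp1 shRNA and 7.96 CPM per kb with the scrambled shRNA. The highest, Mki67, stood at 235 CPM per kb with the Fubp1 shRNA and 223 CPM per kb with the scrambled shRNA. Picalm, the partner of its product, measured 562 ± 87.0 CPM with the Fubp1 shRNA and 567 ± 33.6 CPM with the scrambled shRNA (SD, n = 4 each; edgeR adjusted p = 0.941).

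Pimreg (ENSMUSG00000020808) lies on chromosome 11 from 72042032 to 72047370 on the plus strand in GENCODE M21 (GRCm38), and no annotated gene overlaps it. The nearest tested gene, Aipl1, a cochaperone gene known from photoreceptors, lies on the opposite strand, 4523 bases before it. Aipl1 was barely detected, with 8, 15, 10 and 16 counts in the Fubp1 shRNA libraries, against 4, 1, 1 and 2 counts in the scrambled libraries. It passed the filter on low counts only through the Fubp1 shRNA libraries, so the direction of any call was largely set beforehand. It was called higher (log2 fold change 2.50, SE 0.46, edgeR adjusted p = 0.0125), and lost the call without scrambled replicate 2 (adjusted p = 0.0526) and with the replicate block (adjusted p = 0.0656). With a filter of 1 CPM in 4 libraries it was not tested. Pitpnm3 lies 158 bases after Pimreg, on the other strand. It had 13, 0, 2 and 1 counts with the Fubp1 shRNA, against 0, 0, 0 and 1 counts with the scrambled shRNA, and was too low to be tested. The next tested genes on each side were Mis12 and Derl2, at 1014661 bases or more before, and 4933427D14Rik, Gm43951 and Txndc17 at 106559 to 160177 bases after. Their log2 fold changes lay between -0.17 and 0.19, with edgeR adjusted p of at least 0.352.

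**Figure D2:**
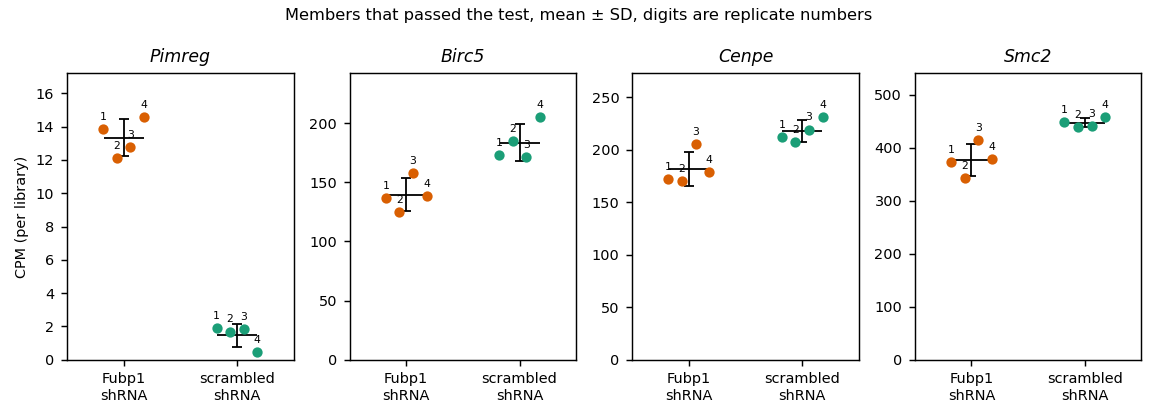
CPM in each library (y axis, from 0) of the 4 members that passed the test, Fubp1 shRNA on the left of each panel and scrambled shRNA on the right. Points are mice with their replicate numbers, and black lines are mean ± SD. Pimreg stands at 12.1 to 14.6 CPM against at most 1.89, and Birc5, Cenpe and Smc2 differ without overlap by much smaller ratios.

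Of the genes that fell, Birc5 fell furthest. It encodes survivin, the subunit that brings Aurora B to the inner centromere in the chromosomal passenger complex. Birc5 measured 137, 125, 158 and 138 CPM with the Fubp1 shRNA, against 173, 185, 171 and 205 CPM with the scrambled shRNA. The groups did not overlap, and replicate 3 was the highest of the Fubp1 shRNA mice. The level was 76.0% of the scrambled level (log2 fold change -0.40, SE 0.09, edgeR adjusted p = 0.0216). Leaving out Fubp1 shRNA replicate 1 or scrambled replicate 2 ended the call (adjusted p up to 0.0591).

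The other subunits of that complex were not called. Aurkb, the kinase, measured 160 ± 11.2 CPM with the Fubp1 shRNA and 157 ± 12.4 CPM with the scrambled shRNA (SD, n = 4 each). Incenp, the scaffold, measured 303 ± 20.1 CPM with the Fubp1 shRNA and 303 ± 31.9 CPM with the scrambled shRNA. Cdca8, which encodes borealin, measured 221 ± 24.2 CPM with the Fubp1 shRNA and 230 ± 11.7 CPM with the scrambled shRNA. Per kb of exon, Birc5 stood at 41.0 CPM with the Fubp1 shRNA and 54.0 with the scrambled shRNA. With the Fubp1 shRNA, Cdca8, Aurkb and Incenp stood at 42.7, 54.3 and 69.94 CPM per kb, against 44.5, 53.4 and 69.98 CPM per kb with the scrambled shRNA.

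Cenpe, the kinesin that carries chromosomes towards the spindle equator, was lower too. It measured 172, 170, 205 and 178 CPM with the Fubp1 shRNA, against 212, 207, 219 and 231 CPM with the scrambled shRNA. The groups came within 3 CPM of each other at Fubp1 shRNA replicate 3 and scrambled replicate 2. The log2 fold change was -0.26 (SE 0.07, edgeR adjusted p = 0.0406). That call was kept without Fubp1 shRNA replicate 3 (adjusted p = 0.00512) and ended without each of the other 7 libraries in turn, with an adjusted p of up to 0.0855.

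Among the other centromere and kinetochore genes, 0 of 6 were called, and 0 had an unadjusted p under 0.05, by edgeR, while DESeq2 and limma-voom called 0 of these 6. Cenpf, a large protein of the outer kinetochore, had the highest log2 fold change of the role at 0.17 (SE 0.12), with 158, 132, 184 and 179 CPM with the Fubp1 shRNA against 125, 146, 144 and 165 CPM with the scrambled shRNA. Those groups overlapped. Cenpa, the histone H3 variant of centromeres, averaged 228 ± 20.1 CPM with the Fubp1 shRNA and 246 ± 6.06 CPM with the scrambled shRNA. The 4 subunits of the NDC80 complex, which grips microtubules, had log2 fold changes from -0.11 for Ndc80 to 0.04 for Spc24. Per kb of exon they stood at 7.35 CPM for Ndc80, 16.2 for Nuf2, 33.2 for Spc24 and 15.5 for Spc25 with the Fubp1 shRNA, against 7.96, 17.2, 32.4 and 15.6 CPM per kb with the scrambled shRNA.

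Smc2, an ATPase arm shared by both condensins, was the third gene called lower. Its values were 374, 343, 415 and 379 CPM with the Fubp1 shRNA, against 450, 439, 442 and 459 CPM with the scrambled shRNA. The scrambled mice lay close together, and all 4 Fubp1 shRNA mice lay below them. Its log2 fold change was -0.24 (SE 0.06, edgeR adjusted p = 0.0337). The call ended without Fubp1 shRNA replicates 1 or 2 or scrambled replicates 1, 2 or 3, with an adjusted p of up to 0.0709.

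All 5 condensin I genes had a fitted change below 0, as did 6710 of all 13462 tested genes. The 6526 tested genes in the CPM range of the 42 members without Pimreg had a median log2 fold change of -0.06. Smc4, the partner arm, measured 484 ± 52.5 CPM with the Fubp1 shRNA and 556 ± 16.4 CPM with the scrambled shRNA (SD, n = 4 each; log2 fold change -0.20, edgeR adjusted p = 0.108). Ncaph, the kleisin that closes the ring, had a log2 fold change of -0.16 (adjusted p = 0.171). Ncapg and Ncapd2, the HEAT repeat subunits, had -0.11 and -0.07. The topoisomerase gene Top2a averaged 1048 ± 112 CPM with the Fubp1 shRNA and 1061 ± 32.3 CPM with the scrambled shRNA. Mki67, which encodes the chromosome surfactant and proliferation marker Ki-67, averaged 2360 ± 384 CPM with the Fubp1 shRNA and 2239 ± 196 CPM with the scrambled shRNA. Per kb of exon, Ncapg and Ncaph stood at 20.4 and 31.3 CPM with the Fubp1 shRNA and 21.95 and 35.0 with the scrambled shRNA. Smc2, Smc4 and Ncapd2 stood at 68.9, 92.8 and 98.3 CPM per kb with the Fubp1 shRNA, against 81.7, 107 and 103 CPM per kb with the scrambled shRNA.

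The promoters of Birc5, Cenpe and Smc2 are shown because these members fell, and that of Cdc25b because it is a mitotic activator that rose, as described further on. Each is the RefSeq window (GRCm38.p6) from 250 bases before to 50 bases after the start of the gene, on the plus strand in all 4. Birc5 lies at chr11:117848987-117849286, Cenpe at chr3:135212313-135212612, Smc2 at chr4:52438971-52439270 and Cdc25b at chr2:131186698-131186997. Capitals mark matches to a CHR-type hexamer (TTTGAA or TTTAAA, either strand) or to a CCAAT box (CCAAT, either strand); the 2 motifs do not overlap in these windows.
Birc5: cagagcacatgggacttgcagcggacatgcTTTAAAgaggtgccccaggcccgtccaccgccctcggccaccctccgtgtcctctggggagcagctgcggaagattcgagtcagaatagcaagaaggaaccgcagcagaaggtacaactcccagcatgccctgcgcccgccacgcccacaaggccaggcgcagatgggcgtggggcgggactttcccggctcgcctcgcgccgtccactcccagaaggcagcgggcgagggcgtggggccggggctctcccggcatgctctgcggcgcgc
Cenpe: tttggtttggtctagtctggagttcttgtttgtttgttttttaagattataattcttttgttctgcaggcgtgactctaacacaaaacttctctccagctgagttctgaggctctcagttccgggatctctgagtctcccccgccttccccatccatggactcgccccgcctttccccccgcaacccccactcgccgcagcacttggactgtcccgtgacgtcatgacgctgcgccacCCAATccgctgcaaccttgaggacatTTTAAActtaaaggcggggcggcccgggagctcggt
Smc2: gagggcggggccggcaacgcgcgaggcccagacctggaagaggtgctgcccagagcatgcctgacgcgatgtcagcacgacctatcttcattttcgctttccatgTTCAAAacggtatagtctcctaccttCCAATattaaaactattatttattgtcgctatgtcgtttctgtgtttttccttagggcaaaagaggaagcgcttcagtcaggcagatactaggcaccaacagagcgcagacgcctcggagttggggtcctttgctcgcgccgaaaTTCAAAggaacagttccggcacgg
Cdc25b: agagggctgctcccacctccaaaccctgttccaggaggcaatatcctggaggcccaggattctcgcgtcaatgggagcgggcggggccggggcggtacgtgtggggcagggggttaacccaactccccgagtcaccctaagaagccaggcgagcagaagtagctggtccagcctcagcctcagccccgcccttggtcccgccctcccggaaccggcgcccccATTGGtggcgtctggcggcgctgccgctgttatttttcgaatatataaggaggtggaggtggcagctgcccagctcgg
The Cenpe window held CCAAT beginning 12 bases before the start and TTTAAA at base 15 after it. Smc2 held TTTGAA on the minus strand, beginning 145 bases before and at base 27 after the start, and CCAAT 119 bases before it. Birc5 held TTTAAA 220 bases before the start and no CCAAT, and Cdc25b held CCAAT on the minus strand 28 bases before the start and no CHR-type hexamer. Of the members, 35 had a RefSeq window; Foxm1, Spc24, Aurkb, Tpx2, Smc4, Ccna2, Incenp and Pimreg had no entry. A CHR-type hexamer was in 28 of the 35, or 80.0%, against 30.6% of 27025 genes. Both motifs were in the same window in 25 of 35, or 71.4%, against 12.2% of all genes. The 3 members that fell are among the 28, and a match is a description and not a measured site.

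The cyclins and entry kinases were not called, 0 of 6 in each direction; 0 of them had an unadjusted p under 0.05 with a higher level and 1 with a lower one, and DESeq2 and limma-voom called 0. That gene was Ccna2, cyclin A2, which works from S phase into mitosis. Ccna2 measured 381, 380, 477 and 396 CPM with the Fubp1 shRNA, against 489, 470, 442 and 530 CPM with the scrambled shRNA. Only replicate 3 of the Fubp1 shRNA mice reached the scrambled range, and the log2 fold change was -0.24 (SE 0.09, edgeR adjusted p = 0.0907). The cyclin B genes Ccnb1 and Ccnb2 had log2 fold changes of 0.11 (SE 0.11) and 0.10 (SE 0.07). Cdk1 averaged 172 ± 17.1 CPM with the Fubp1 shRNA and 180 ± 7.49 CPM with the scrambled shRNA (SD, n = 4 each), and Plk1, the Polo-like kinase, 175 ± 16.9 CPM with the Fubp1 shRNA and 168 ± 19.6 CPM with the scrambled shRNA. The annotation names a pseudogene of Ccnb1 and of Ccnb2, so their values are uncertain if reads were divided between the copies. Of the 43 members, 8 overlap a tested gene on the other strand: Ccna2, Plk1, Top2a, Cdc20, Cdca8, Nusap1, Prc1 and Ncapg. The strand setting of the counts is not stated, so these values may include reads of the overlapping gene.

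In the spindle checkpoint 0 of 5 were called, with 1 lower at an unadjusted p under 0.05 and 0 called by DESeq2 or limma-voom. Bub1b, which encodes the BUBR1 part of the mitotic checkpoint complex, had the lowest log2 fold change at -0.13 (SE 0.05, edgeR adjusted p = 0.145). Its values were 233, 232, 262 and 242 CPM with the Fubp1 shRNA, against 255, 267, 273 and 262 CPM with the scrambled shRNA. Bub1, the kinase that recruits the others to kinetochores, had the highest at 0.09. Mad2l1, the inhibitor of CDC20, averaged 155 ± 12.9 CPM with the Fubp1 shRNA and 157 ± 3.76 CPM with the scrambled shRNA (SD, n = 4 each).

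The anaphase genes had log2 fold changes of at most 0.10 in size. Cdc20, the APC/C activator, averaged 268 ± 31.1 CPM with the Fubp1 shRNA and 268 ± 43.8 CPM with the scrambled shRNA (SD, n = 4 each). Pttg1, securin, averaged 26.5 ± 2.80 CPM with the Fubp1 shRNA and 26.2 ± 1.81 CPM with the scrambled shRNA. Espl1, separase, averaged 221 ± 21.1 CPM with the Fubp1 shRNA and 223 ± 21.97 CPM with the scrambled shRNA. The log2 fold change of Ube2c, the ubiquitin-conjugating enzyme of the APC/C, was 0.10 (SE 0.09). None of these 4 was called by edgeR, DESeq2 or limma-voom, and 0 had an unadjusted p under 0.05.

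Among the 7 spindle and cytokinesis genes 0 were called by edgeR, DESeq2 or limma-voom, and 1 was higher at an unadjusted p under 0.05. This was Racgap1, the part of centralspindlin that regulates RhoA. It measured 130, 116, 133 and 131 CPM with the Fubp1 shRNA, against 109, 103, 102 and 126 CPM with the scrambled shRNA (log2 fold change 0.22, SE 0.08, edgeR adjusted p = 0.0962). The groups overlapped at scrambled replicate 4; without it the gene passed (adjusted p = 0.0302). Nusap1, a microtubule bundler, was at the other end at -0.11, with 97.1, 84.7, 131 and 123 CPM with the Fubp1 shRNA against 116, 120, 115 and 122 CPM with the scrambled shRNA.

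Foxm1 had the highest fitted log2 fold change after Pimreg. It measured 128, 103, 135 and 119 CPM with the Fubp1 shRNA, against 95.5, 93.0, 87.1 and 116 CPM with the scrambled shRNA. The groups overlapped at scrambled replicate 4 and Fubp1 shRNA replicate 2, and the log2 fold change was 0.31 (SE 0.11, edgeR adjusted p = 0.0852). DESeq2 (adjusted p = 0.0453) and the fit without scrambled replicate 4 (adjusted p = 0.0373) put it past the threshold. Mybl2 measured 149 ± 8.56 CPM with the Fubp1 shRNA and 149 ± 28.5 CPM with the scrambled shRNA (SD, n = 4 each).

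Within the Fubp1 shRNA group, 1 mouse had a higher level of mitotic transcripts than the rest. Replicate 3 was the highest of its group in 40 of the 42 genes and the highest of all 8 libraries in 22. Replicate 2 was the lowest of its group in 28. The mean of log2 CPM over the 42 genes, centred gene by gene, was -0.06, -0.14, 0.16 and -0.02 in Fubp1 shRNA replicates 1 to 4, against -0.01, -0.00, -0.04 and 0.11 in scrambled replicates 1 to 4. Scrambled replicate 4 was the highest of its group in 27 of the 42 genes. Prc1, which bundles the central spindle, had its highest value of each group in these mice, with 169, 173, 227 and 158 CPM with the Fubp1 shRNA against 154, 162, 147 and 190 CPM with the scrambled shRNA. Hmmr, which encodes a spindle assembly protein, was also highest in replicate 3, with 191, 206, 273 and 220 CPM with the Fubp1 shRNA against 193, 198, 212 and 209 CPM with the scrambled shRNA.

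Marker sums of other cell types differed between the same mice. The early granulocyte markers (5 of 5 tested, 0 called) summed to 1963, 940, 85.8 and 3583 CPM in Fubp1 shRNA replicates 1 to 4, against 35.4 to 330 CPM in the scrambled libraries. The 8 erythroid markers, with Car2 and Tfrc as the largest terms, summed to 6885, 6049, 8565 and 6624 CPM in the same 4 mice, against 8264 to 9081 CPM in the scrambled libraries. They moved in both directions, where 7.29% of all tested genes were called lower and 8.02% higher. Klf1, Gata1, Epor, Ermap and Car2 were called lower, and 2 were called higher. These were Hbb-bs, at a mean of 921 CPM with the Fubp1 shRNA against 298 CPM with the scrambled shRNA, and Alas2, at 172 against 65.1 CPM. Replicate 3 thus had the fewest granulocyte transcripts, the most erythroid ones and the most mitotic ones of its group. The megakaryocyte markers (2 of 5 called higher, against 8.02% of all tested genes) summed to 131 to 213 CPM with the Fubp1 shRNA. The sum was 68.0 to 86.4 CPM with the scrambled shRNA. Itga2b was the largest term, at a mean of 127 CPM with the Fubp1 shRNA against 41.0 CPM with the scrambled shRNA. Gp1ba was also called, and Gp9, Pf4 and Vwf were not (edgeR adjusted p of at least 0.410). Of 4 endothelial and stromal markers 1 was tested and called higher, Pecam1 (edgeR adjusted p = 0.0123). Pecam1 measured 32.6, 29.5, 9.33 and 45.3 CPM with the Fubp1 shRNA against 2.92 to 5.90 CPM with the scrambled shRNA. The others did not follow it as a set: Cdh5 reached at most 0.0278 CPM in any library. Cxcl12 averaged 0.105 CPM with the Fubp1 shRNA and 0.103 CPM with the scrambled shRNA. Col1a1, a stromal gene that did not pass the filter, reached 332 CPM in Fubp1 shRNA replicate 1 alone. It measured 0.198, 0 and 0.0871 CPM in Fubp1 shRNA replicates 2 to 4, against 0.0260 to 6.86 CPM with the scrambled shRNA. Nkg7, of the T and NK cell list, measured 27.6, 18.8, 2.00 and 86.6 CPM with the Fubp1 shRNA against 1.804 to 8.10 CPM with the scrambled shRNA, and the macrophage gene Csf1r 26.1, 1.95, 0.730 and 17.7 CPM with the Fubp1 shRNA against 0.167 to 1.32 CPM with the scrambled shRNA. Both were low in Fubp1 shRNA replicate 3 and were not called. The late granulocyte markers reached 23.0 CPM at most. Whether these marker differences bear on the mitotic values was not tested.

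**Figure D3:**
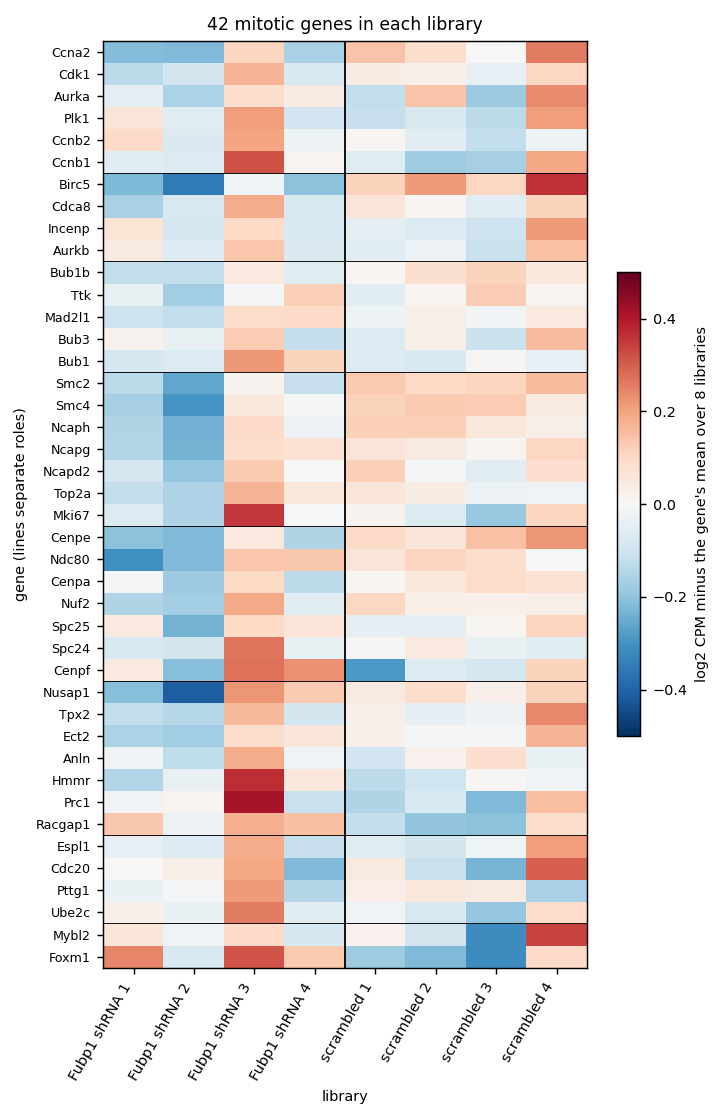
Log2 CPM minus the gene's own mean over the 8 libraries (colour) of the 42 genes without Pimreg (rows, lines separate roles) in each library (columns, Fubp1 shRNA left of the line). The column of Fubp1 shRNA replicate 3 is red in 40 of 42 rows and that of replicate 2 is above the mean in 2, while scrambled replicate 4 is above the mean in 34.

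Fubp1 shRNA replicate 3 was the highest of its group in 40 of the 42 genes, so leaving it out was bound to lower nearly all fitted changes. Without it all 42 were lower than with the 8 libraries, and 33 of 43 members lay below 0 against 26. The median was -0.07, against -0.01 over all tested genes of that fit. The mouse was singled out from these same values, so the calls below only describe that fit. Now 8 members were called lower, against a background of 10.6% lower and 14.1% higher in that fit. They were Birc5 (log2 fold change -0.47), Cenpe (-0.33), Smc2 (-0.30), Ccna2 (-0.33), Smc4 (-0.27), Ncaph (-0.23), Nuf2 (-0.18) and Bub1b (-0.17). Of the 5 condensin I genes 3 were among them. Pimreg kept its value of 3.17 and was again the only member called higher.

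**Figure D4:**
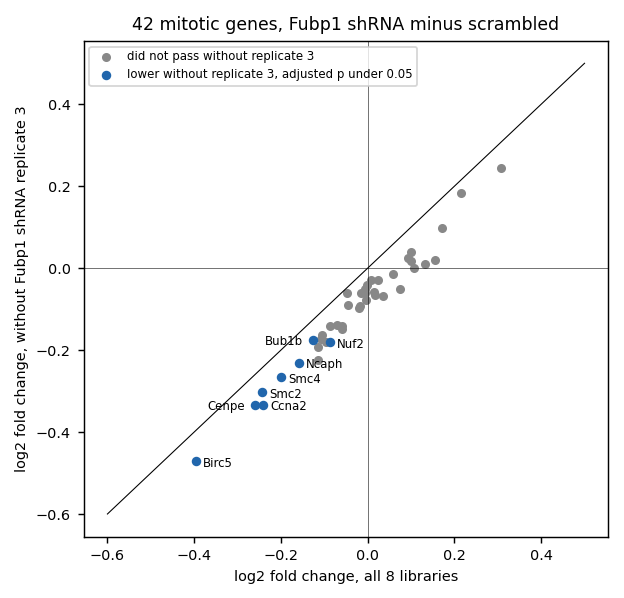
Log2 fold change of the 42 genes without Pimreg (Fubp1 shRNA minus scrambled shRNA) with all 8 libraries (x axis) and without Fubp1 shRNA replicate 3 (y axis), with the line of equal values. All points lie below the line, and the 8 named genes were called lower without that mouse. It was the highest of its group in 40 of the 42 genes, so a downward shift was built in.

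Further mitotic genes outside the 43 were counted in lists by complex. In condensin II (3 genes), cohesin (11), the checkpoint partners (10), and the DREAM and MuvB complexes (10), edgeR called 0 genes. At an unadjusted p under 0.05 these lists had 0 higher, and 1, 2, 1 and 2 lower. DESeq2 called 1 cohesin gene and 1 DREAM or MuvB gene lower, and limma-voom called 0. The medians were -0.19, -0.03, -0.01 and -0.06 in log2 units.

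The APC/C list held most of the calls, with 5 of 16 lower and 0 higher (median -0.14), against the background of 7.29% lower. With the replicate block 1 of 16 was called lower, against 1.52% of genes. Cdc16, a scaffold subunit of the arch that binds the activator, measured 78.9, 85.4, 90.2 and 86.2 CPM with the Fubp1 shRNA, against 107, 108, 119 and 111 CPM with the scrambled shRNA. Its log2 fold change was -0.38 (SE 0.06, edgeR adjusted p = 0.00900), and the call held with each library left out (adjusted p of at most 0.0297). Anapc5, a platform subunit, averaged 611 ± 49.5 CPM with the Fubp1 shRNA and 736 ± 28.6 CPM with the scrambled shRNA (SD, n = 4 each; edgeR adjusted p = 0.0302). Anapc7 and Anapc10, a scaffold subunit and a subunit of the substrate receptor, had log2 fold changes of -0.21 and -0.30. Anapc5, Anapc7 and Anapc10 kept their call in 3, 2 and 1 of the 8 fits with a library removed. All 3 lost it with the replicate block (adjusted p of 0.118, 0.138 and 0.157), and Anapc7 and Anapc10 also lost it without a filter on low counts. The fifth gene called was Anapc2, the cullin of the complex, with a log2 fold change of -0.19 (edgeR adjusted p = 0.0424). Anapc7 overlaps Gm15846 on the other strand. Cdc20 and Pttg1, its activator and one of its substrates, had log2 fold changes of -0.00 and 0.02.

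Among entry regulators Cdc25b was higher, with 1 of 12 called, a share near the background of 8.02%. CDC25B is a phosphatase that activates CDK1 by removing inhibitory phosphate. It measured 146, 104, 182 and 178 CPM with the Fubp1 shRNA, against 44.3, 40.3, 29.9 and 72.6 CPM with the scrambled shRNA. The mean was 3.26-fold higher without overlap (log2 fold change 1.71, SE 0.29, edgeR adjusted p = 0.0118), and the call held with each library left out (adjusted p of at most 0.0456). Cdc25b overlaps Spef1 on the other strand, and without a stated strand setting their reads cannot be told apart. The 2 other genes of its family, Cdc25a and Cdc25c, had log2 fold changes of -0.05 and 0.08. In the list of other kinetochore and centromere genes 1 of 26 was called higher, below the background of 8.02%, and 0 lower. At an unadjusted p under 0.05 there were 1 higher and 6 lower, and DESeq2 called 1 higher and 2 lower. A fitted change below 0 was seen in 18 of the 26, against 6710 of all 13462 tested genes. The median of the 26 was -0.10 log2 units. The 6526 tested genes in the CPM range of the 42 members without Pimreg had a median of -0.06. Groups did not overlap for 1 gene in the higher and 3 in the lower direction. The gene called was Cenpm, a subunit of the constitutive centromere network. It was higher at 30.3 ± 2.16 CPM with the Fubp1 shRNA, against 23.5 ± 2.03 CPM with the scrambled shRNA (SD, n = 4 each; log2 fold change 0.36, edgeR adjusted p = 0.0307), kept the call in 4 of 8 fits with a library removed and lost it with the replicate block (adjusted p = 0.131) and without a filter on low counts (adjusted p = 0.0752).

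**Figure D5:**
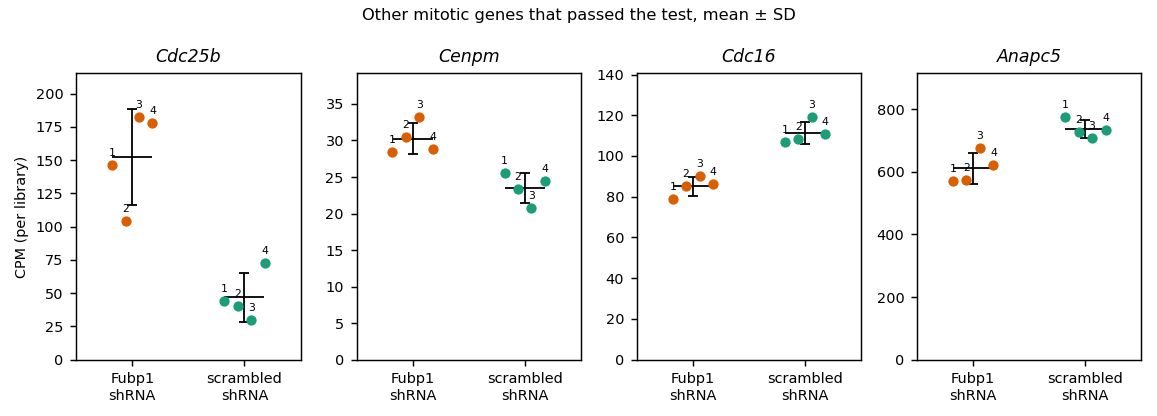
CPM in each library (y axis, from 0) of 4 mitotic genes outside the 43 that passed the test, Fubp1 shRNA left and scrambled shRNA right in each panel. Points are mice with replicate numbers and black lines are mean ± SD; Cdc25b and Cenpm lie higher, and Cdc16 and Anapc5 lower, in all 4 Fubp1 shRNA mice.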

How the data were processed

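Total RNA of 8 libraries, 4 per group, was sequenced with a stranded, ribosome-depleted kit, per the labels' protocols. The deposited table holds raw read counts per gene, 1 column per library, matched by the number shared with the sample's description. CASAVA 1.8 is named in the submitters' processing notes, with aligner, counter, strand setting, annotation and build not given in the sources used here. Also deposited were the authors' log2 fold changes and p-values from DESeq2 1.18.1, a mean normalised signal over all libraries, and a test statistic (a score) that was not used. Their fold changes were kept apart from those computed here.

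The main test was that of edgeR 4.0.16 (R 4.3.3) on the counts: filterByExpr, TMM factors of 0.965 to 1.03, a robust quasi-likelihood fit with the group as its only term, a two-sided F test and Benjamini-Hochberg adjustment over 13462 genes (threshold 0.05). Log2 fold changes are Fubp1 shRNA minus scrambled shRNA; each SE is the change divided by the root of F. DESeq2 1.42.0, limma 3.58.1, another scaling, 2 other filters, a replicate block and fits without each library were alternatives. The chi-square per degree of freedom between libraries of a group was at least 10.7, so no library was a copy. Of the 47729 gene IDs, 47310 matched GENCODE M21. Text names Pimreg, called members, the extremes of each role, up to 4 related genes a list past the threshold by smallest p, and Pimreg's nearest tested genes; other genes named were chosen after their values were seen. The members and lists were chosen with earlier results of these data known. The series design gives 4 mice per group.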

Additional observations from a re-analysis of the deposited data

Results flagged for a closer look

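Within groups of 4, 12 of 100 sets of values examined (43 members and 7 other named genes in each group) held a library far from the other 3. For a single set chance gives about 1 in 20. The sets share the same libraries and are not independent, so the count is no measure of an excess. In Fubp1 shRNA replicate 3, Ccna2 was high at 477 CPM, Cdk1 at 198, Tpx2 at 350.0, Spc24 at 101 and the APC/C gene Anapc7 at 93.3. In Fubp1 shRNA replicate 2, Spc25 was low at 41.98 CPM. In scrambled replicate 4, Plk1 was high at 198 CPM and Incenp at 350.2, while Smc4 was low at 531, Pttg1 at 23.5 and Pimreg at 0.450. In scrambled replicate 1, Nuf2 was high at 113 CPM. For Pimreg the other 3 scrambled mice lay at 1.69 to 1.89 CPM; without that library its log2 fold change was 2.87.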

How the results depend on the processing

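Over the 14 alternatives the log2 fold change of Pimreg kept its direction and its call, and no named gene that passed reversed. Without each library in turn it ran from 2.87 to 3.29, members called higher numbered 1 to 3, members called lower 0 to 8, and genes called over all 526 to 3425. The lowest count of genes came without scrambled replicate 2 and the highest without Fubp1 shRNA replicate 3. Members called lower numbered 0 without Fubp1 shRNA replicate 1 or scrambled replicate 2, and 1 (Birc5) without Fubp1 shRNA replicate 2 or scrambled replicates 1 or 3. They numbered 2 (Birc5 and Smc2) without replicate 4 of either group, and 8 without Fubp1 shRNA replicate 3. The median of the members ran from -0.07 to 0.01 in those fits. DESeq2 called 3588 genes and 2 members higher. The replicate numbers did not pair the mice: deviations of same-numbered libraries correlated at -0.56 to 0.02, and 0 of 8 libraries correlated best with their own number. With those numbers as a replicate block, 400 genes were called and 0 members lower (3 at an unadjusted p under 0.05), with Pimreg called at an adjusted p of 0.0300. The cause was not tested. Fits without a library have fewer samples. Depth limits Aipl1 and Pitpnm3, with at most 16 counts in any library.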
